A study of Equus caballus with 26 samples.

Results

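Antioxidant and redox enzymes were followed in horse blood before (T0) and after (T1) an endurance ride of 160 km. The 10 genes were listed by name: SOD1, SOD2, CAT, GPX1, PRDX1, GLRX, GCLM, GSR, TXN and TXNRD1. All 10 were found among the 24415 gene names on the array, and each was read by the brightest probe of its gene name. GLRX, GCLM and GSR carry the names LOC100064937, LOC100058894 and LOC100062365 on this array and were recognised by their descriptions.

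Superoxide, the first reactive oxygen species released by respiring mitochondria and by activated phagocytes, is turned into hydrogen peroxide by superoxide dismutases, SOD1 in the cytosol and SOD2 in mitochondria. Catalase (CAT), glutathione peroxidase 1 (GPX1) and peroxiredoxin 1 (PRDX1) then remove the peroxide. GPX1 draws on glutathione, whose synthesis starts with glutamate-cysteine ligase (GCLM is its modifier subunit) and whose oxidised form is returned by glutathione reductase (GSR). Glutaredoxin (GLRX) frees protein thiols bound to glutathione, while peroxiredoxins are returned by thioredoxin (TXN), itself reduced by thioredoxin reductase 1 (TXNRD1). In blood these messages come from leukocytes of several kinds and, for some of them, from young red cells.

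RNA was taken from whole blood of pure or crossbred Arabian horses entered in endurance rides, with a stated age of 10 ± 2 years (SEM) over all horses recruited. The experimental set (labelled training) held 3 geldings, horses 2, 32 and 41, sampled at T0 and again at T1. The validation set held 7 horses sampled only at T0 (3 females, 4 geldings) and 13 other horses sampled only at T1 (3 females, 10 geldings), so that its comparison was made between animals. No treatment other than the ride was labelled, and neither the ride each horse entered nor its finishing result is given by the labels. For its larger validation set, the paper reports that most horses sampled at T0 were eliminated during the ride. All those sampled at T1 finished. Finishing result may thus differ between the T0 and T1 horses of the validation set, and its part in their differences was not tested. The number of arrays limits the precision.

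Each array gave 1 value per probe, here the log2 signal minus the 75th percentile of its array, so that a level of 0 equals that percentile. Between 60.2% and 75.3% of probes were well above background on the 26 arrays, and all 10 enzyme probes were well above background on all 26 without saturation. At T0, horse 47 stood apart from the other 6 validation horses, with a mean level of 5.03 over 8 neutrophil genes where the others lay between 3.30 and 3.60. The T1 array of horse 34 was scanned in 1 pass and held all 431 saturated spots of the series. Both are carried in the comparisons, and values without them are given where they matter.

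The probes themselves matter for reading these enzymes, since the array holds SOD2 probes that differ at a single base. The 60-base probes of 3 overlapping pairs are printed here because the same base of the message, at chr31:8533122-8533122 of the plus strand as the array file numbers it (build named equCab1 in its header), falls at a different place in each. The differing base is in capitals, and positions are counted from 1 at the 5′ end of the probe. The brighter probe of each pair is the first.
A_69_P000613: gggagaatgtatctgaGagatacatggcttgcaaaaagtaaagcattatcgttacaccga
A_69_P004148: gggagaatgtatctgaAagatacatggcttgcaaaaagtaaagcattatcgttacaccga
A_69_P000614: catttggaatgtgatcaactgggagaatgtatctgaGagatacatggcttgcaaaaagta
A_69_P004149: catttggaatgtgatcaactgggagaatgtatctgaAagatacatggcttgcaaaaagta
A_69_P000615: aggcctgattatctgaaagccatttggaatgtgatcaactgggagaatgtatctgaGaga
A_69_P004150: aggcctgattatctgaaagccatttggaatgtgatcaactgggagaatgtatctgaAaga

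With G17A the second probe read 1.10 ± 0.078 log2 units less signal than the first (SD, n = 26 arrays). With G37A it read 0.447 ± 0.069 log2 units less, and with G57A 0.030 ± 0.032, a mean smaller than its SD. The gap of the first pair stayed between 0.993 and 1.30 on every array, and that of the second between 0.288 and 0.564. The level read by a SOD2 probe thus differed by up to 1.30 log2 units within an array, while the T1 minus T0 differences of a pair were close. In the validation set the probes of the first pair gave 1.02 and 1.12, those of the second 0.93 and 0.92, and those of the third 0.82 and 0.85. Levels are accordingly compared only within a probe throughout.

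Over the ride GCLM, GLRX and SOD2 were over-expressed at T1 and GPX1 was under-expressed in both sets of horses. In the experimental set 4 of the 10 enzymes passed an adjusted p of 0.05 in limma, with horse as a block (3 over-expressed and 1 under-expressed), against 10.6% of the 17490 gene names tested (6.38% higher at T1 and 4.18% lower). In the validation set 7 of 10 passed (4 over-expressed and 3 under-expressed), against 44.2% of 17404 gene names (20.3% higher and 23.9% lower). CAT rose and SOD1 and PRDX1 fell in that set alone at this threshold, and TXN, TXNRD1 and GSR passed in neither. The median log2 difference over the 10 enzymes was 0.41 in the experimental set and 0.41 in the validation set, beside 0.03 and -0.07 over all gene names tested. The 10 enzymes were chosen with earlier results of these data known. Whether they differ from all gene names in these counts or medians was not tested.

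**Figure D1:**
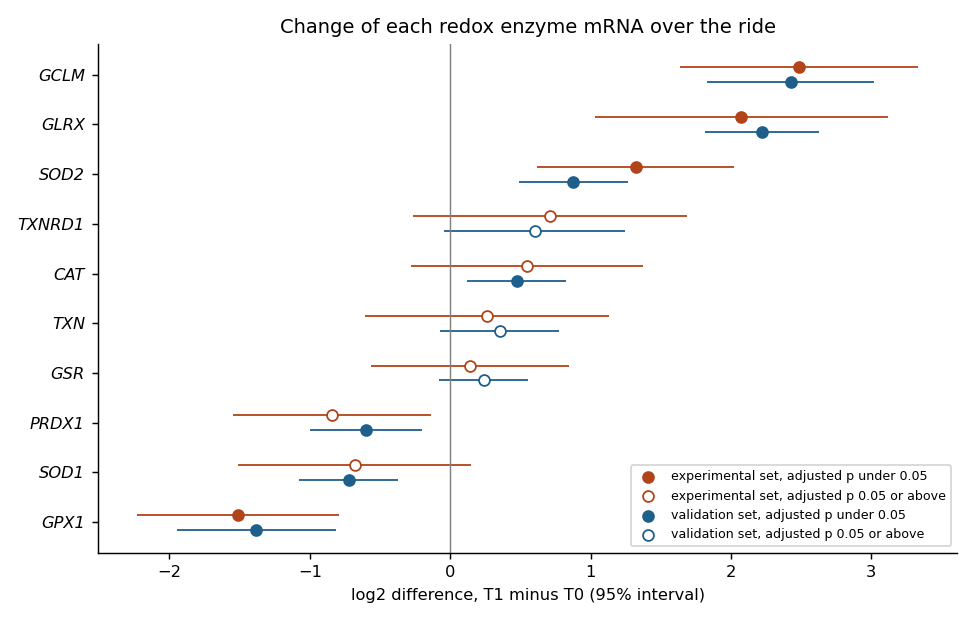
Log2 difference between T1 and T0 for each enzyme (points) with its 95% interval (lines), in the experimental set (orange) and the validation set (blue); filled points have an adjusted p under 0.05. GCLM, at 2.49 and 2.43, lies farthest to the right and GPX1, at -1.51 and -1.38, farthest to the left in each set.

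Of the superoxide dismutases, SOD2 rose in both sets and SOD1 fell in the validation set. SOD2, the mitochondrial enzyme, went from log2 levels of 5.02, 4.60 and 4.67 at T0 to 6.38, 5.89 and 5.99 at T1 in horses 2, 32 and 41. Every horse gained, by between 1.29 and 1.36, and the levels of T0 and T1 did not overlap. Here and below, overlap describes single enzymes only. The share of all gene names without overlap is not given, so none of it is read as particular to these enzymes. The fitted difference was 1.32 ± 0.311 (SE, adjusted p = 0.032), or 2.50-fold, and was 0.98 with quantile normalization (adjusted p = 0.069). Among the validation horses SOD2 ran from 4.32 over a median of 4.98 to 5.91 at T0 and from 5.47 over 5.76 to 6.42 at T1. Of the 7 horses at T0, 6 lay below the lowest horse at T1, and the exception was horse 47. The difference was 0.88 ± 0.188 (adjusted p = 0.00080), or 1.84-fold, and 1.03 without horse 47.

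SOD2 is the enzyme with the most probes, and all 18 counted with it, under 3 gene names, read a higher level at T1 in each set. These are not 18 separate readings of SOD2, since probes overlap and A_69_P000612 and A_69_P004147 share a sequence. The 5 probes named AY246758 lie on the minus strand, opposite to the other SOD2 probes with a position. They are dim, with validation T0 means between -4.58 and -4.16, and whether they read the SOD2 message was not tested. The probe used here (Oligo-336) carries a mouse Sod2 description and no position on the horse genome. Across the 13 validation horses at T1 it correlated at r between 0.906 and 0.985 with 9 of the 10 horse probes of the same gene name (each permutation p at or below 8.93e-05 after adjustment over 25 probe relations). The remaining probe, A_69_P004151 at chr31:8525303-8525362, correlated at r = 0.367 (permutation p = 0.215) and rho = 0.423 (permutation p = 0.153). The largest differences were those of the 2 probes named AY246759 (chromosome 31, plus strand), whose brighter probe gave 2.21 ± 0.331 (SE) in the experimental set (adjusted p = 0.0063) and 1.64 ± 0.215 in the validation set (adjusted p = 1.03e-05). These 2 probes followed the probe used less closely than the 9 above. They gave r = 0.557 and 0.603 (permutation p adjusted to 0.049 and 0.032). Whether they read the SOD2 message was not tested either.

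SOD1, the cytosolic copper-zinc enzyme, had a single probe. SOD1 went from 3.81, 2.53 and 3.45 at T0 to 2.40, 2.57 and 2.77 at T1 in horses 2, 32 and 41. Horses 2 and 41 lost signal while horse 32, the lowest at T0, gained 0.04. The difference of -0.68 ± 0.367 did not pass the test (adjusted p = 0.247). Validation horses had SOD1 levels from 2.85 over 3.93 to 4.20 at T0 and from 2.50 over 2.93 to 3.23 at T1. The highest horse at T1 lay below 6 of the 7 horses at T0, the exception again being horse 47, and SOD1 fell by 0.72 ± 0.169 (adjusted p = 0.0016).

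**Figure D2:**
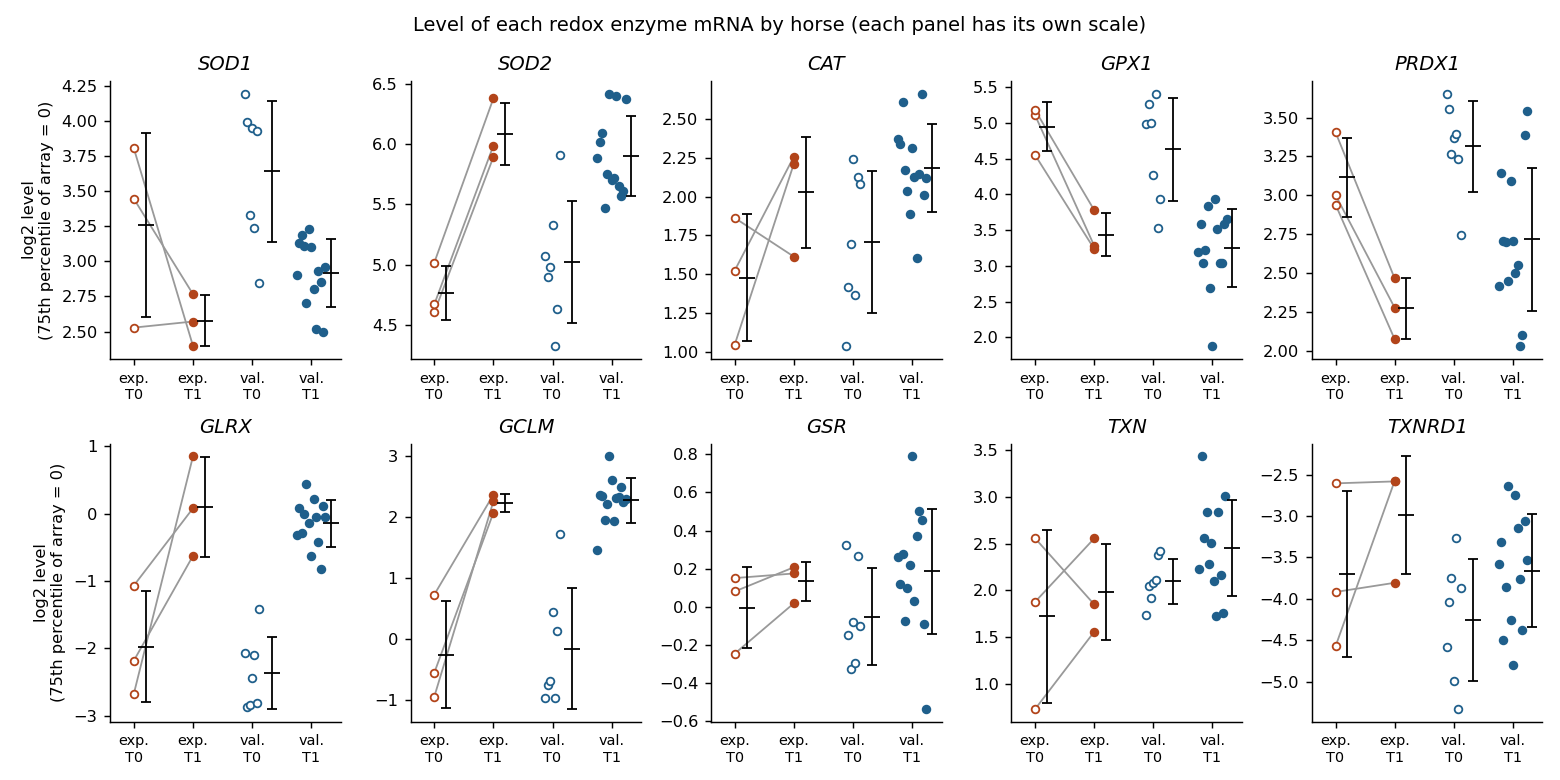
Log2 level of each enzyme (75th percentile of the array = 0) for every horse, with open points at T0 and filled points at T1, grey lines joining the 3 experimental horses (orange), validation horses in blue, and bars for the mean ± SD. GLRX is the enzyme whose T0 and T1 points do not overlap in either set, and the scales differ between panels.

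Among the enzymes that remove peroxide, GPX1 fell by the most. Its levels at T0 were 5.10, 5.18 and 4.55 in horses 2, 32 and 41, against 3.28, 3.78 and 3.24 at T1. The groups did not overlap and the fitted difference was -1.51 ± 0.319 (adjusted p = 0.023), which makes T0 2.85-fold higher. GPX1 ran in the validation set from 3.53 over 4.99 to 5.41 at T0 and from 1.87 over 3.22 to 3.93 at T1. Of the 7 horses at T0, 6 lay above every horse at T1, and the exception was horse 40. GPX1 fell by 1.38 ± 0.272 there (adjusted p = 0.00040), and by 1.5 without horse 47.

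GPX1 had 2 probes on chromosome 16, plus strand, and both are described because they read the ride alike and the horses differently. The first, in the coding part at chr16:37794608-37794667, has a GC content of 55% and was used for the values above. The second, at chr16:37794826-37794885, has a GC content of 45% and is not printed.
A_69_P056031: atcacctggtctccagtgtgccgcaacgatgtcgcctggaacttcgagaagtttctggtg

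The second probe gave a T1 minus T0 difference of -1.42 in the experimental set, down in 3 of 3 horses, and of -1.42 in the validation set. At T1 it ran from 1.63 over 2.49 to 2.85 across the 13 validation horses. The probes nevertheless ordered these horses in opposite ways, with r = -0.561 (permutation p = 0.047, adjusted p = 0.049) and rho = -0.549 (permutation p = 0.056), and r = -0.552 without the 2 horses farthest from the median of the first. Each other enzyme with a second probe under its own gene name had r above 0 between them. The level of GPX1 in a single horse at T1 thus depended on the probe, and the direction of its change did not.

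PRDX1, a peroxiredoxin of the cytosol, read 3.41, 2.94 and 3.0 at T0 and 2.47, 2.08 and 2.28 at T1 in horses 2, 32 and 41. It was lower at T1 in each of the 3 horses with no overlap, but the difference of -0.84 ± 0.312 did not pass over all genes (adjusted p = 0.110). PRDX1 ran in the validation set from 2.75 over 3.37 to 3.65 at T0 and from 2.03 over 2.70 to 3.54 at T1. It fell by 0.60 ± 0.192 (adjusted p = 0.015), with 9 of 13 horses at T1 below the lowest horse at T0. A second probe, under LOC100052421 on chromosome 2, gave -0.62 ± 0.170 in the validation set (adjusted p = 0.0052) and -0.75 in the experimental set (adjusted p = 0.146).

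CAT, the catalase that splits peroxide without a thiol partner, read 1.86, 1.52 and 1.05 at T0 and 1.61, 2.26 and 2.21 at T1. Horse 2 lost signal and the other 2 gained, and the difference of 0.55 ± 0.367 did not pass (adjusted p = 0.346). CAT ran in the validation set from 1.04 over 1.70 to 2.24 at T0 and from 1.61 over 2.15 to 2.66 at T1, a rise of 0.47 ± 0.169 (adjusted p = 0.027). That call was lost with quantile normalization, at 0.37 (adjusted p = 0.067). A brighter catalase probe, under LOC100060647, gave 0.19 ± 0.119 in the validation set (adjusted p = 0.205) and 0.00 ± 0.373 in the experimental set (adjusted p = 0.996), so that 1 of its 2 probes passed in 1 of the 2 sets.

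**Figure D3:**
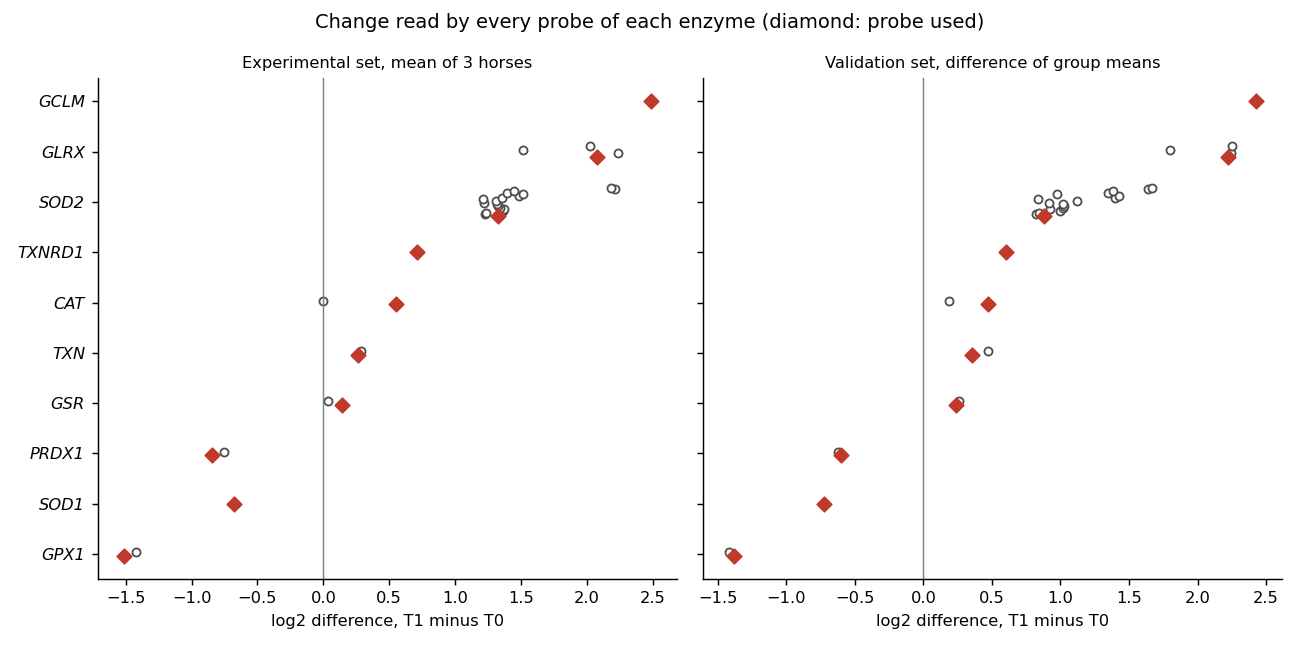
Log2 difference between T1 and T0 for every probe of each enzyme, with the probe used as a red diamond and the others as open circles; the experimental set is on the left and the validation set on the right. The 18 probes counted with SOD2 span 1.21 to 2.21 on the left and 0.82 to 1.67 on the right, and the second CAT probe sits near 0 on the left.

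Of the 10 enzymes GCLM and GLRX gave the largest rises in each set. GCLM, which sets the affinity of glutamate-cysteine ligase for its substrates, read -0.55, -0.94 and 0.73 at T0 and 2.07, 2.26 and 2.37 at T1 in horses 2, 32 and 41. The groups did not overlap and the difference was 2.49 ± 0.377 (adjusted p = 0.0067), or 5.60-fold. Levels of GCLM in the validation set ran from -0.97 over -0.68 to 1.72 at T0 and from 1.45 over 2.32 to 2.99 at T1. The highest level at T0 was that of horse 47, and the other 6 lay below every horse at T1. GCLM rose by 2.43 ± 0.287 (adjusted p = 4.17e-06), or 5.37-fold, and by 2.74 without horse 47. Its single probe lies on chromosome 5.

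GLRX read -2.67, -1.07 and -2.18 at T0 and 0.85, 0.08 and -0.63 at T1 in horses 2, 32 and 41. The gain was 3.52 in horse 2, beyond the 1.15 and 1.56 of the other 2 horses, and the difference was 2.08 ± 0.463 (adjusted p = 0.027), or 1.35 without horse 2. Levels of GLRX in the validation set ran from -2.87 over -2.44 to -1.42 at T0 and from -0.82 over -0.05 to 0.44 at T1. None of the 13 horses at T1 overlapped with the 7 at T0, horse 47 included. GLRX rose by 2.22 ± 0.196 (adjusted p = 2.97e-07), or 4.66-fold, and its 4 probes on chromosome 14 gave between 1.80 and 2.25.

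GSR, which returns oxidised glutathione at the cost of NADPH, moved least of the 10 in both sets. It read 0.08, -0.25 and 0.15 at T0 and 0.21, 0.02 and 0.17 at T1, with a difference of 0.14 ± 0.312 (adjusted p = 0.796, 95% interval -0.57 to 0.84). In the validation set it ran from -0.33 over -0.10 to 0.32 at T0 and from -0.54 over 0.22 to 0.79 at T1, with a difference of 0.24 ± 0.153 (adjusted p = 0.215, 95% interval -0.08 to 0.56). The groups overlapped in each set.

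Neither member of the thioredoxin system passed the test. TXN read 2.56, 0.74 and 1.88 at T0 and 1.85, 1.56 and 2.55 at T1 in horses 2, 32 and 41. It was lower at T1 in horse 2 and higher in the other 2, and the difference was 0.27 ± 0.385 (adjusted p = 0.680). Levels of TXN in the validation set ran from 1.74 over 2.08 to 2.42 at T0 and from 1.73 over 2.39 to 3.43 at T1. The spot of horse 19 was an outlier by the scanner software and was left out, so the fit drew on 12 horses at T1 and gave 0.35 ± 0.204 (adjusted p = 0.171, 95% interval -0.07 to 0.78).

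TXNRD1, the reductase of thioredoxin, was read by 1 dim probe on chromosome 28, far below the 75th percentile. It read -4.57, -2.61 and -3.92 at T0 and -2.58, -2.58 and -3.81 at T1. Horse 2 gained 2.00 and the other 2 gained 0.02 and 0.11, so the difference of 0.71 ± 0.433 (adjusted p = 0.302) fell to 0.07 without horse 2. Among the validation horses TXNRD1 ran from -5.33 over -4.04 to -3.26 at T0 and from -4.80 over -3.59 to -2.64 at T1, with a difference of 0.60 ± 0.309 (adjusted p = 0.122). The value ranged widely with the processing. It passed with quantile normalization, at 0.71 (adjusted p = 0.041), and did not with normexp and quantile normalization, at 0.23 (adjusted p = 0.078), with the series values, at 0.24 (adjusted p = 0.066), or with scan day as a block, at 0.18 (adjusted p = 0.700). Within the 5 scan days that held both times it was higher at T1 in 3, with differences between -1.54 and 1.76.

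The direction of change was the same in the 2 sets for 10 of 10 enzymes, as it was for 87.7% of the 17141 gene names tested in both, and the sets share no horse. None of the 10 passed the test for a difference between the sets in the interaction fit by limma (largest SOD2, 0.44 ± 0.367, 95% interval -0.31 to 1.20), where 0 of 17889 gene names passed (0%) and 100 gene names but none of the enzymes had an unadjusted p under 0.05. The interval of GCLM ran from -1.16 to 1.28. With a horse left out of the experimental set, 0 of 10 enzymes passed without horse 2, 0 without horse 32 and 4 without horse 41, and all gene names past the threshold went from 1846 to 235, 287 and 2693. The fitted differences stayed between 2.13 and 2.91 for GCLM, between 1.30 and 1.34 for SOD2 and between -1.61 and -1.36 for GPX1, while GLRX ranged from 1.35 to 2.54.

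Scan day was shared by T0 and T1 arrays on 5 days in the validation set. Within these days GLRX was higher at T1 on 5 of 5 (1.44 to 2.89), as were GCLM (2.16 to 3.56), SOD2 (0.37 to 1.38) and CAT (0.14 to 1.02). GPX1 was lower on 5 of 5 (-3.53 to -0.09), as were SOD1 (-1.22 to -0.13) and PRDX1 (-1.41 to -0.06). On the 3 slides that held both times SOD1 and PRDX1 were each higher at T1 on 1, and CAT was higher on 2. In the experimental set 2 days held both times, each with 1 array at T0 and 1 at T1 from different horses, so that these values break the pairing by horse. GCLM gave 2.92 and 3.01 there, GLRX 2.05 and 1.92, SOD2 0.97 and 1.78, and GPX1 -1.87 and -1.90.

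Horse 47, sampled at T0, had the highest T0 level of the validation set for 4 enzymes (SOD2, TXN, GLRX and GCLM) and the lowest for 2 (SOD1 and PRDX1). These are the directions in which each of them differed at T1, although TXN did not pass the test. The share of all gene names with horse 47 at an extreme is not given, so these counts are not read as particular to the enzymes. Horse 47 also had the highest T0 means over neutrophil genes (5.03), over monocyte genes (2.87) and over immature neutrophil granule genes (0.97), and the lowest over T cell genes (0.19). The part of these cell type genes in its enzyme levels was not tested.

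Markers of blood cell types also differed between T0 and T1. Over all gene names 20.3% rose and 23.9% fell in the validation set, and 6.38% and 4.18% in the experimental set. Of 8 neutrophil genes on the array 7 rose in the validation set and none fell. Their mean level ran from 3.30 to 5.03 at T0 and from 4.82 to 5.89 at T1 there, and from 2.89 to 4.43 and 5.08 to 5.59 in the experimental set. Of 6 monocyte genes 5 rose, with mean levels of 0.61 to 2.87 at T0 and 2.95 to 4.24 at T1 in the validation set. Granule genes of immature neutrophils rose in 4 of 5 cases there, including OLFM4 by 5.79 ± 0.702 (adjusted p = 5.03e-06). The experimental set gave 5 of 8 neutrophil, 5 of 6 monocyte and 4 of 5 granule genes higher, and 5 of 7 T cell genes lower.

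Most lymphocyte markers went the other way. All 7 T cell genes fell in the validation set, their mean level running from 0.19 to 1.57 at T0 and from -1.0 to 0.44 at T1. There 5 of 6 B cell genes and 4 of 5 NK cell genes fell. The remaining NK cell gene, NCR1, rose by 1.34 ± 0.250 (adjusted p = 0.00024), and by 1.01 in the experimental set (adjusted p = 0.162). None of the 4 platelet genes tested passed, and of the 4 red cell genes tested HBA and HBB rose. The part of these shifts in the enzyme results was not tested, and in whole blood fewer cells of a type and less RNA per cell cannot be told apart.

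The wider redox pathway was read from 5 lists holding 75 genes by role, of which 68 were on the array. In the validation set 39 of the 64 tested passed (21 over-expressed and 18 under-expressed), against the 44.2% of all gene names given above, and in the experimental set 15 of 65 passed (11 and 4), against 10.6%. The lists thus held genes moving both ways, and they are described by count only. Beside each count below stand the shares over all gene names. These were 20.3% higher and 23.9% lower at T1 in the validation set, and 6.38% and 4.18% in the experimental set. Whether a list differs from these shares was not tested.

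**Figure D4:**
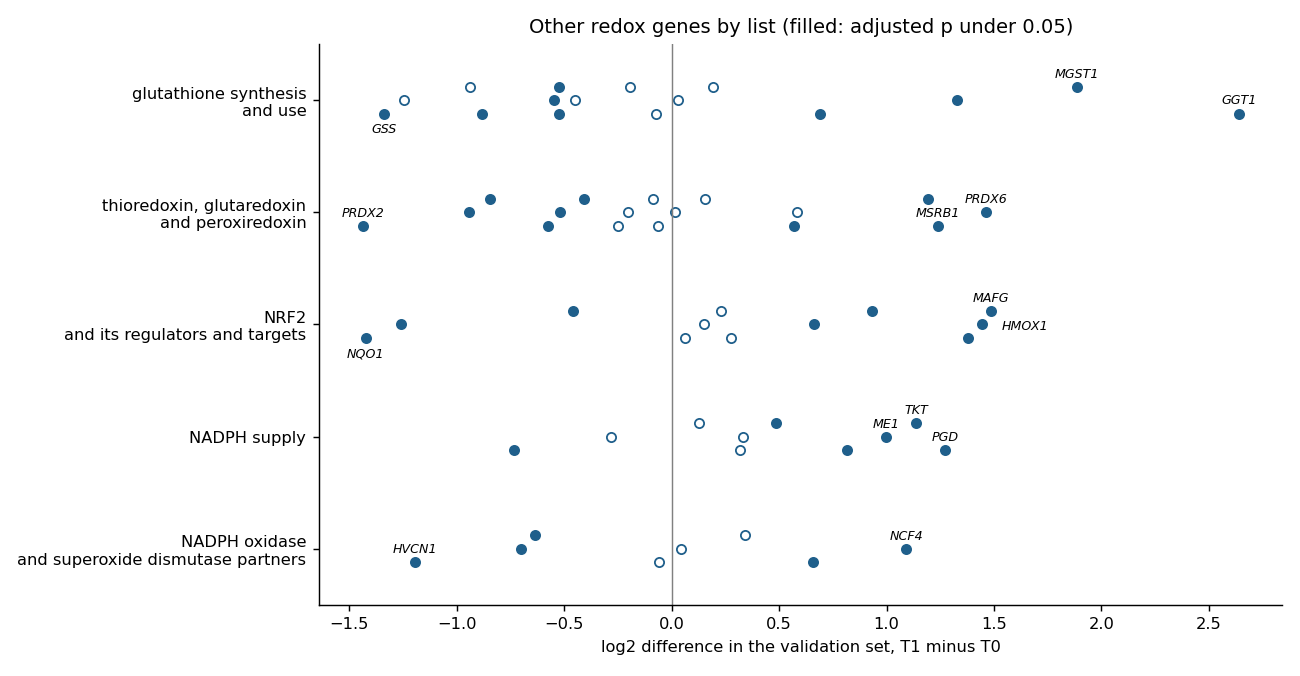
Log2 difference between T1 and T0 in the validation set for the genes tested, 1 gene not reported here left out (points), by list (rows), with filled points at an adjusted p under 0.05 and the names of genes described in the text; points are spread vertically for legibility. Every list has filled points on each side of 0, from GGT1 at 2.64 to PRDX2 at -1.44.

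In glutathione synthesis and use, 4 of 16 genes rose and 5 fell in the validation set (median -0.32), and 1 rose and 1 fell in the experimental set. GGT1, the ectoenzyme that opens glutathione breakdown, rose by 2.64 ± 0.536 (adjusted p = 0.00052), and MGST1, a membrane glutathione transferase and peroxidase, by 1.89 ± 0.261 (adjusted p = 1.62e-05). GSS, which completes glutathione synthesis, fell by 1.34 ± 0.488 (adjusted p = 0.030), although it was well above background in only 6 of 13 arrays at T1. In the experimental set MGST1 passed, at 1.32 (adjusted p = 0.043). GGT1, at 1.59 (adjusted p = 0.144), and GSS, at -0.99 (adjusted p = 0.183), did not pass there. GCLC, the catalytic partner of GCLM, was chosen for mention after its values were seen: it gave -0.55 ± 0.215 in the validation set (adjusted p = 0.044) and -0.74 in the experimental set (adjusted p = 0.188), while GCLM rose in both.

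Among the other thioredoxins, glutaredoxins and peroxiredoxins 4 of 17 rose and 6 fell (median -0.09), with 3 and 1 in the experimental set. PRDX6, a peroxiredoxin with a single catalytic cysteine that draws on glutathione, rose by 1.46 ± 0.198 (adjusted p = 1.34e-05) in the validation set and by 1.61 ± 0.317 (adjusted p = 0.018) in the experimental set. PRDX2, abundant in red cells, fell by 1.44 ± 0.196 (adjusted p = 1.43e-05) and by 1.72 ± 0.325 (adjusted p = 0.016). MSRB1, which repairs oxidised methionine, rose by 1.24 ± 0.337 (adjusted p = 0.0053) and by 1.39 ± 0.374 (adjusted p = 0.047). The peroxiredoxins thus held genes that rose and genes that fell in each set.

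Around NRF2, the transcription factor that many of these enzymes answer to, 5 of 12 genes rose and 3 fell (median 0.25), with 3 and 1 of 13 in the experimental set. MAFG, a small partner protein of NRF2, rose by 1.49 ± 0.280 (adjusted p = 0.00028) and HMOX1, the inducible haem oxygenase, by 1.44 ± 0.332 (adjusted p = 0.0015). NQO1, a quinone reductase, fell by 1.42 ± 0.336 (adjusted p = 0.0018) from an already dim level of -3.69. All 3 passed in the experimental set too, with the same signs. NFE2L2, the gene of NRF2 itself, was chosen for mention after its values were seen and rose by 1.38 ± 0.168 (adjusted p = 5.39e-06), and by 1.55 in the experimental set (adjusted p = 0.019).

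NADPH, the reductant of GSR and TXNRD1, comes largely from the pentose phosphate route and malic enzyme. Of 10 genes of NADPH supply 5 rose and 1 fell (median 0.41), with 2 rising and none falling in the experimental set. PGD rose by 1.27 ± 0.235 (adjusted p = 0.00023), TKT by 1.14 ± 0.197 (adjusted p = 0.00013) and ME1, the cytosolic malic enzyme, by 1.0 ± 0.163 (adjusted p = 7.54e-05), the last at 1.30 and an adjusted p of 0.0502 in the experimental set. Of 9 genes of the phagocyte NADPH oxidase and superoxide dismutase partners 3 rose and 3 fell (median 0.04), with 2 and 1 in the experimental set. NCF4, a cytosolic subunit of the oxidase, rose by 1.09 ± 0.369 (adjusted p = 0.020), and the proton channel HVCN1 fell by 1.19 ± 0.325 (adjusted p = 0.0052).

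How the enzymes varied together among horses was asked in the 13 validation horses at T1, over all 45 pairs. By permutation test, 4 pairs passed after adjustment over the 45 for Pearson's r and 6 for Spearman's rho, and 23 pairs had r above 0. SOD1 and TXN, over the 12 horses with both values, gave r = 0.796 (permutation p = 0.0017, adjusted p = 0.026) and rho = 0.811 (permutation p = 0.0022, adjusted p = 0.025), with r = 0.610 without the 2 horses farthest from the median of SOD1. The other TXN probe, read in all 13 horses, gave r = 0.845 with SOD1.

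GLRX and TXNRD1 gave r = 0.834 (permutation p = 0.00043, adjusted p = 0.0097) and rho = 0.841 (permutation p = 0.00059, adjusted p = 0.0088), with r = 0.768 without the 2 farthest horses. The 3 other GLRX probes gave r between 0.765 and 0.857 with TXNRD1, which has no second probe on the array. Without horse 34 this pair stayed past the threshold (adjusted p = 0.018) and SOD1 with TXN did not (r = 0.738, adjusted p = 0.081), both by permutation test.

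The remaining 2 pairs involved GPX1, and they turned with its probe. GPX1 and TXNRD1 gave r = 0.888 (permutation p = 2.0e-05, adjusted p = 0.00090) and rho = 0.896 (permutation p = 1.0e-04, adjusted p = 0.0045), but r = -0.449 (permutation p = 0.124) with the second GPX1 probe. GLRX and GPX1 gave r = 0.754 (permutation p = 0.0025, adjusted p = 0.028) and rho = 0.863 (permutation p = 0.00034), against r = -0.318 (permutation p = 0.289) with that probe, and was past the threshold no longer without horse 34 (r = 0.752, permutation p adjusted to 0.062). With quantile normalization neither SOD1 with TXN (r = 0.709, permutation p adjusted to 0.087) nor GLRX with GPX1 (r = 0.721, permutation p adjusted to 0.064) passed. With normexp and quantile normalization GLRX with GPX1 gave a permutation p adjusted to 0.0501.

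The 2 further pairs that passed by Spearman ran in opposite directions and did not pass by Pearson. GLRX and GSR gave rho = -0.747 (permutation p = 0.0044, adjusted p = 0.033) and r = -0.635 (permutation p = 0.020, adjusted p = 0.111), with r = -0.426 without the 2 farthest horses. GPX1 and GSR gave rho = -0.758 (permutation p = 0.0037, adjusted p = 0.033) and r = -0.697 (permutation p = 0.011, adjusted p = 0.090), with r = -0.524 without the 2 farthest horses. This pair was not tested with the second GPX1 probe, which ordered these horses in the opposite way. Horse 21, highest in GSR at 0.79, was lowest in GPX1 by the first probe (1.87) and highest by the second (2.85). The sign of this pair is thus given for the first probe only.

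No scan day held more than 4 of the 13 horses, which is too few for a value within a day. With the mean of each scan day taken out, in the 9 horses that shared a day, SOD1 with TXN gave r = 0.894 and GLRX with TXNRD1 r = 0.827, the latter no longer past the threshold (permutation p adjusted to 0.062). None of 50 relations of the 10 enzymes to the 75th percentile of the array, the share of probes well above background, or the neutrophil, monocyte and T cell means passed. The nearest was PRDX1 with the neutrophil mean (r = 0.793, permutation p = 0.0012, adjusted p = 0.062, and rho = 0.610, permutation p = 0.029). These relations were read among horses at T1 only, so they cannot tell what part cell types had in the differences between T0 and T1.

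**Figure D5:**
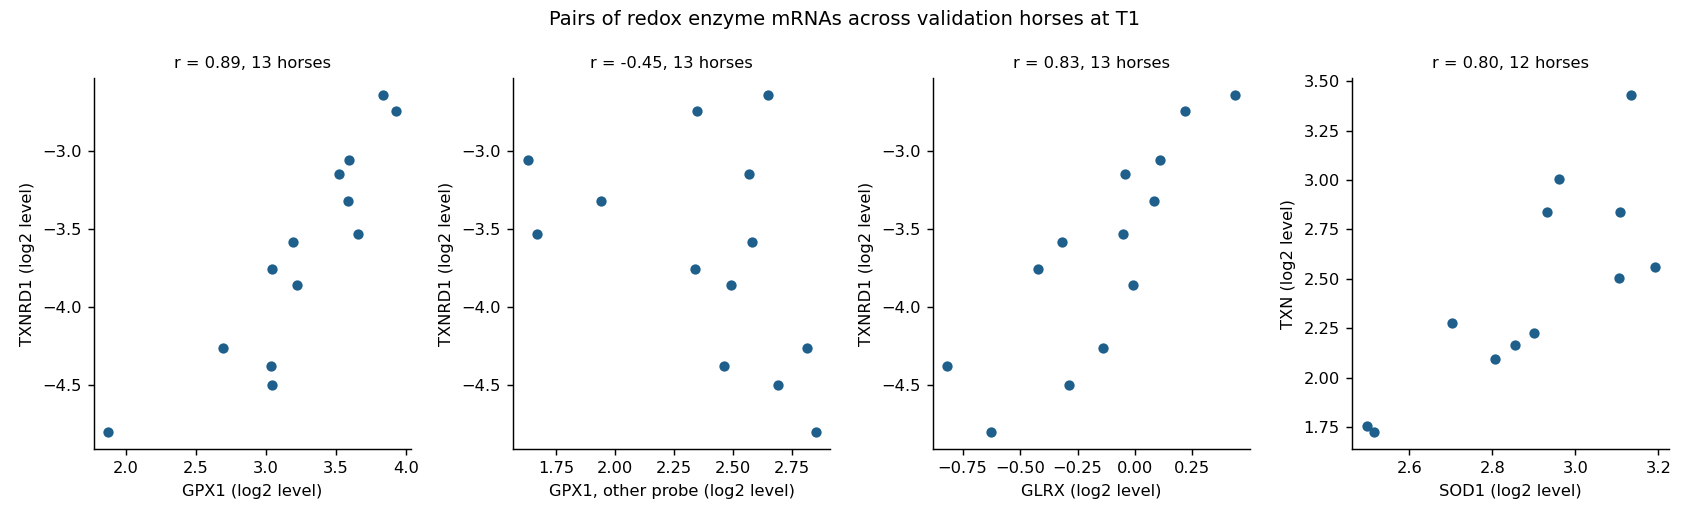
Log2 levels of pairs of enzymes across the validation horses at T1 (points), with Pearson's r above each panel. GPX1 rises with TXNRD1 by its first probe (r = 0.89) and not by its second (r = -0.45), while GLRX with TXNRD1 (r = 0.83) and SOD1 with TXN (r = 0.80) are shown for the probes used.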

How the data were processed

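RNA from whole blood of 23 horses was hybridised to 26 one-colour custom equine Agilent arrays. The deposited files hold spot intensities that, per the file headers, Feature Extraction 10.7.3.1 had background-corrected and detrended without normalization between arrays; probe positions refer to a build named equCab1, which could not be checked. A deposited series table of log2 values, which the authors made (limma is named in the submitters' processing notes, with no version given), was used as an alternative. Its scale and centring were read from the values.

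Outlier and control spots were left out, spots of a probe averaged, and log2 intensities centred on the 75th percentile of each array. The brightest probe stood for a gene name. Tests were run by limma 3.58.1 in R 4.3.3 with Benjamini-Hochberg adjustment over all gene names well above background on at least 3 arrays (experimental set, horse as a block) or 7 arrays (validation set). The difference between sets was an interaction fit over all 26 arrays with horse as a random block. The replicate block pairs arrays of the same animal by the labels; deviations of T0 and T1 correlated at -0.0082, 0.212 and 0.191 in horses 2, 32 and 41. Correlations used 100000 permutations, two-sided (Python 3.11.15, scipy 1.17.1). The procedure was tested on simulated data.

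The members and lists were chosen with earlier results of these data known. Up to 3 genes of each list were named, those with the largest validation difference among genes past the threshold with the same sign in the experimental set. A gene that this rule names and a probe sequence are not reported here. Of the listed symbols, 13 had no gene name on the array. Alternatives covered background correction, normalization, the filter on dim probes, the choice of probe, slide, scan day, sex and single horses. Those for pairs of enzymes were added after seeing the data.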

Additional observations from a re-analysis of the deposited data

How the results depend on the processing

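In the validation set GLRX, GCLM, SOD2, GPX1, SOD1 and PRDX1 kept their direction and stayed past the threshold in 13 of 13 settings. CAT was lost with normexp and quantile normalization (adjusted p = 0.060), quantile normalization (0.067), the series values (0.054) and scan day as a block (0.073), and the cause was not tested. The experimental set, with 3 horses, was less stable. Its 1846 gene names past the threshold became 65 with no filter, 2920 with a filter on every array and 2978 with all 26 arrays in a single fit, and 235 to 2693 with a horse left out. The enzymes past the threshold there went from 4 to 0 with no filter and 0 to 4 with a horse left out, and the redox list genes from 15 to 0 with no filter and 0 to 17 with a horse left out. PRDX1 passed there with normexp and quantile normalization (-1.01, adjusted p = 0.018) and the series values (-1.02, adjusted p = 0.021). Without the replicate block 1799 gene names and 4 enzymes passed. The split of higher against lower calls was 1115 to 731, but 1134 to 1213 with normexp and quantile normalization, 1008 to 1024 with quantile normalization and 1059 to 1163 with the series values.

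TXN in the experimental set ranged from -0.014 to 0.75 with a horse left out. Differences between the sets that changed sign, none of them past the threshold, were those of SOD1 (-0.061 with normexp and quantile normalization, -0.0039 with quantile normalization, -0.083 with the series values), CAT (-0.0093 with quantile normalization, -0.23 with scan day as a term), TXN (0.23 with scan day as a term) and GCLM (-0.25 without horse 47). Without horse 34, 2 pairs of enzymes passed in place of 4, and 3 did with quantile normalization, where SOD1 with TXN and GLRX with GPX1 were lost and PRDX1 with GSR passed. PRDX1 with GSR also passed with the series values (r = -0.808, permutation p adjusted to 0.015). It passed too with normexp and quantile normalization (r = -0.795, permutation p adjusted to 0.020). With the values used above it did not (r = -0.652, permutation p adjusted to 0.094). Slide and scan day as random blocks could not be fitted in the experimental set. TXNRD1, GSS and NQO1 are dim, so their levels are the least certain.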
